A study of Mus musculus with 8 samples.

Results

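Forced Nanog is one of the conditions under which NS tet-off embryonic stem cells (ESCs) were deprived of nucleostemin (NS), the nucleolar GTP-binding protein encoded by Gnl3. The comparison described here is that of the Nanog-overexpressing cells on 1 Dox-treated and 1 Dox-untreated array, 2 of 8 arrays analysed, across all 18194 genes that the arrays name. In NS tet-off ESCs, a male mouse line of 129sv origin, both endogenous NS alleles are disrupted and NS comes from a cDNA placed in the ROSA26 locus under tetracycline-off control, so that doxycycline (Dox) stops it. All cells carried these alleles, and the treated cells received Dox for 6 days. Apart from the 2i pair, the cells grew in conventional medium with serum and leukemia inhibitory factor. The Nanog cells carried a stably integrated Nanog vector under puromycin selection. The other pairs of arrays, each of 1 Dox-untreated and 1 Dox-treated array, came from cells with an empty vector, from empty vector cells in the 2i condition, which inhibits MEK and GSK3, and from cells with an Esrrb vector. The cells with constitutively active Stat3 are not analysed here.

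Nanog is a homeodomain transcription factor of the pluripotency network. In ESCs its forced expression is known for sustaining self-renewal. ESCs keep many genes of the germline silent or at low level, largely through DNA methylation and repressor complexes that bind their promoters, while cholesterol is made from acetyl-CoA by a chain of enzymes whose genes are switched on together by the SREBP transcription factors when sterols run low.

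Values are log2 signals after the robust multiarray analysis (RMA), 1 probe set per gene, and a log2 ratio is what remains when the untreated value of a pair is taken from the treated one. No condition has a replicate, so no difference within the Nanog pair could be tested. A gene over 2-fold higher or lower, that is with a log2 ratio above 1 or below -1, is past a size and not past a test. Tests were possible only across pairs, with limma, for the response common to the 4 pairs and for the response of the Nanog pair minus the mean of the other 3. The array medians lay between 5.31 and 5.36, but the 2i Dox-untreated array did not carry the mark of MEK inhibition. Dusp6, a feedback gene of Erk signalling, read 10.95 there against 10.97 on the empty vector Dox-untreated array and 7.64 on the 2i Dox-treated array. The 2i pair is used here as labelled, and it enters the ranges over pairs and the common response, of which 18 genes were left without it.

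The labelled conditions were checked with Gnl3 and Nanog. Gnl3 read 13.68 without Dox and 9.13 with Dox on the Nanog arrays, both as log2 signals. Of its signal 4.25% was left, a log2 ratio of -4.557 beside -5.678, -5.529 and -4.9997 in the empty vector, 2i and Esrrb pairs. The single probe set of Nanog read 12.35 without Dox and 12.23 with Dox in the Nanog cells. Those are the lowest readings of the 8 arrays, which otherwise ran from 12.49 to 13.23, so the vector was not visible in this probe set. Whether the probe set lies within the cDNA of the vector is not given in the sources used here, and where it does not it checks nothing.

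Both Nanog arrays carried the markers of ESCs. The 6 ESC markers Pou5f1, Sox2, Zfp42, Dppa4, Tdgf1 and Sall4 lay between 11.80 and 13.34 before and between 11.77 and 13.16 after Dox, all above the array median. No primitive endoderm marker of 6, among them Gata6 and Sox17, was above the array median on either array. Of 6 fibroblast markers 1 stood above it before and 2 after Dox, Thy1 being the highest at 7.79 and 7.80. Of 6 trophoblast markers 2 stood above it before and 3 after. Krt8 was highest at 9.34 and 8.86. Of 5 germ cell markers all 5 stood above it before and 4 after Dox, between 5.42 and 8.97 and between 5.05 and 8.51. In whole cultures, fewer cells that express a gene and less RNA in each cell cannot be told apart.

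With forced Nanog, 206 genes (1.13% of 18194) stood higher by over 2-fold after NS loss, and 213 (1.17%) stood lower by as much. The SD of the log2 ratio over genes was 0.371, near the 0.374 of the Esrrb pair and below the 0.644 of the empty vector and 0.605 of the 2i pair. These counts stand beside the differences between arrays that all had NS: between any 2 of the 4 Dox-untreated arrays, 125 to 332 genes differed over 2-fold, against 419 between the 2 Nanog arrays. Many calls were close to the threshold. Under 2.2-fold stood 74 of the higher and 64 of the lower genes, and a further 112 and 97 genes lay between 1.8-fold and 2-fold. Of the higher genes 72 and of the lower genes 107 had a mean signal below that of the median gene, 6.69.

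**Figure D1:**
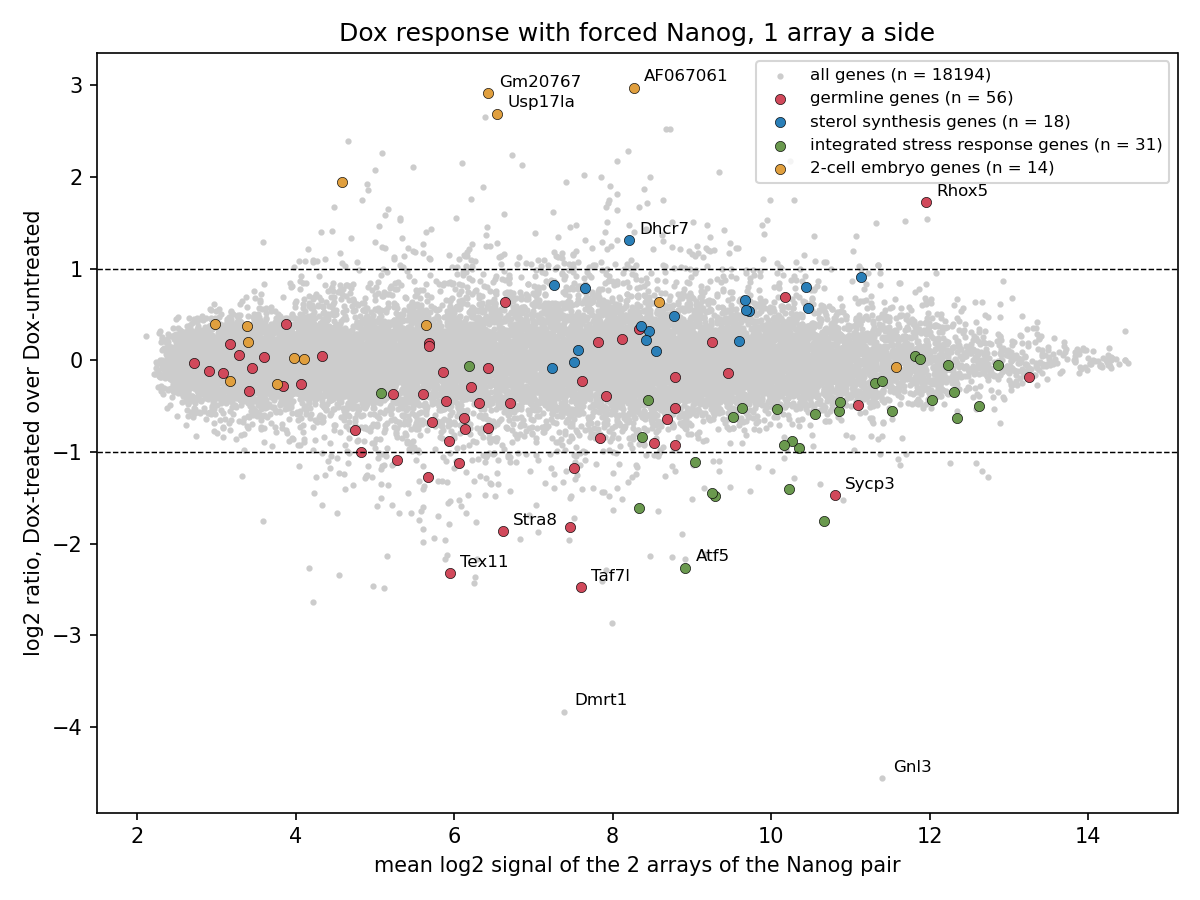
Log2 ratio of the Nanog pair (Dox-treated over Dox-untreated, 1 array each) against the mean log2 signal of its 2 arrays, 1 point a gene, with 4 gene lists in colour and dashed lines at 2-fold. Gnl3 and Dmrt1 lie lowest, the 2-cell embryo genes AF067061, Gm20767 and Usp17la highest, sterol synthesis genes mostly above 0 and integrated stress response genes mostly below it.

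What was higher with forced Nanog was mostly higher without it too. Of the 206 genes, 136 (66%) also passed that size with the empty vector, where 976 genes (5.36% of all) did, 122 (59.2%) in the 2i pair, where 875 (4.81%) did, and 88 (42.7%) in the Esrrb pair, where 193 (1.06%) did. In the other direction the shared genes made up 13.9% of those higher in the empty vector pair, 13.9% in the 2i pair and 45.6% in the Esrrb pair. In all 4 pairs 70 genes passed, and 159 of the 206 (77.2%) were higher by any amount in every other pair, against 23.5% of all genes. The median log2 ratio of the 206 genes was 1.22 in the Nanog pair that chose them and 1.79, 1.23 and 0.88 in the empty vector, 2i and Esrrb pairs. The pairs share no array.

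The lower genes were shared in part as well. Of the 213 genes, 119 (55.9%) were lower by as much with the empty vector, where 701 genes (3.85%) were, 76 (35.7%) in the 2i pair, where 564 (3.1%) were, and 96 (45.1%) in the Esrrb pair, where 176 (0.967%) were. They made up 17%, 13.5% and 54.5% of the lower genes of those pairs. All 4 pairs shared 32 genes, and 161 of the 213 (75.6%) were lower by any amount in every other pair, against 23.1% of all genes. Their medians were -1.09, -0.75 and -0.83 in the empty vector, 2i and Esrrb pairs. Read the other way, genes higher by over 2-fold with the empty vector had a median log2 ratio of 0.47 in the Nanog pair, with 851 of 976 above 0, and those over 2-fold lower a median of -0.42, with 584 of 701 below 0.

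A few genes went against the other pairs. Of the 206 higher genes 5 (2.43%, beside 23.1% of all genes) were lower in every other pair, Gstt1, Trh, Apom, Prcd and Upk3bl. Of the 213 lower genes 0 (0%, beside 23.5% of all genes) were higher in every other pair. These 5 were named after their values were seen. Gstt1, a glutathione transferase, read 7.08 and 8.80 with forced Nanog, 6.59 and 4.09 with the empty vector, 6.06 and 4.29 in 2i and 6.52 and 5.63 with Esrrb. Trh, the precursor of thyrotropin-releasing hormone, read 9.84 and 10.99 with forced Nanog and had log2 ratios of -2.02, -2.13 and -0.67 in the other pairs. The response of the Nanog pair minus the mean of the others was 3.43 for Gstt1 and 2.75 for Trh (standard errors 0.63 and 0.62, unadjusted p = 0.00256 and 0.00598, limma adjusted p = 1 for both), so neither difference passed.

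**Figure D2:**
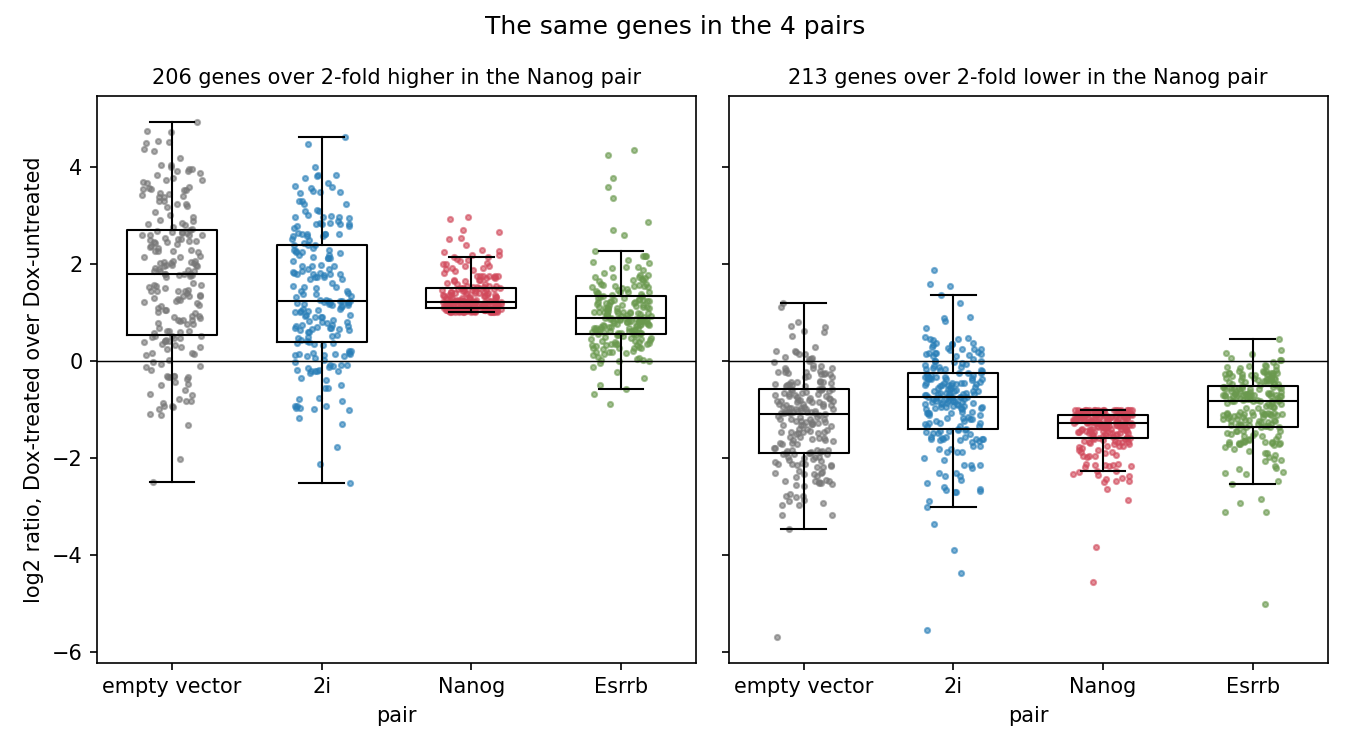
Log2 ratios, in each of the 4 pairs, of the 206 genes over 2-fold higher (left) and the 213 genes over 2-fold lower (right) in the Nanog pair, each point a gene, boxes giving quartiles and medians and whiskers reaching 1.5 box lengths at most. The Nanog column is cut at 1 and -1 by the choice of genes, and the medians of the other columns are 1.79, 1.23 and 0.88 on the left and -1.09, -0.75 and -0.83 on the right.

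Across the 4 pairs taken as replicates, limma called 671 genes higher (3.69%) and 616 lower (3.39%) after Dox at a Benjamini-Hochberg adjusted p under 0.05. The Nanog pair is 1 of the 4 in this fit, and with any 1 pair left out only 3 to 35 genes passed, so that a call of the common response rests on all 8 arrays. Gnl3 and Ptprv, a receptor-type tyrosine phosphatase, passed in each of those smaller fits. The second fit asked whether a gene responded differently with forced Nanog. Taking its spread from the other 3 pairs, it assumed that the lone Nanog pair varies as they do. It called 0 of 18194 genes (0%), with 349 genes at an unadjusted p under 0.05 and 334 when limma ran without a trend in the variance. No gene is therefore said below to respond in the Nanog pair alone, and values of the pairs are set side by side. The second fit's spread holds differences between the empty vector, 2i and Esrrb pairs, whose log2 ratios had SDs of 0.644, 0.605 and 0.374. A difference that did not pass is not evidence that the pairs responded alike. Many genes below are named for their ratio in the Nanog pair. Both fits use that ratio, so their coefficients and p-values for these genes are not independent of the choice.

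After Gnl3, the lowest gene with forced Nanog was Dmrt1, a transcription factor of the testis and of germ cells. Its log2 signal with forced Nanog was 9.30 without Dox and 5.47 with it, so that 7.02% was left. The empty vector arrays read 10.22 and 7.75, the 2i arrays 9.19 and 6.18 and the Esrrb arrays 9.70 and 7.72, so that no treated array reached an untreated one. Over the 4 pairs Dmrt1 fell by 2.82 as a log2 ratio (standard error 0.29, limma adjusted p = 0.0189, lower in 4 of 4 pairs) and also passed in the fit without the Nanog pair.

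The other genes among the 15 lowest came from many classes. B4galnt2, a glycosyltransferase, had a log2 ratio of -2.86, Napsa, an aspartic protease, of -2.41, and Zfp711, a zinc finger protein, of -2.29. Other probe sets of these genes read less: B4galnt2 up to 0.23, Napsa -0.74 and Zfp711 -0.31. Epithelial genes stood among them as well, Cldn7 of tight junctions, from 9.997 to 7.831, and Esrp1, a regulator of epithelial splicing, from 9.54 to 7.40. Both fell over the 4 pairs, by 1.69 and 2.80 (standard errors 0.23 and 0.44, limma adjusted p = 0.0251 and 0.0295). Gch1, which starts the synthesis of tetrahydrobiopterin, went from 8.43 to 6.47 in the Nanog pair and had ratios of -2.32, -1.42 and -2.32 in the empty vector, 2i and Esrrb pairs. Ephx2, the soluble epoxide hydrolase, had a log2 ratio of -1.90, Niban1 of -2.11, Calml4 of -1.95 and 5430416N02Rik of -2.15. Otx2, a regulator of the step from naive to primed pluripotency, went from 7.99 to 6.11. Its untreated Nanog array lay below the other untreated arrays, which read 9.11 to 9.41, and Otx2 was lower after Dox in all 4 pairs (limma coefficient -2.36, standard error 0.40, adjusted p = 0.0325).

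The highest genes were genes of the 2-cell embryo, which a small share of ESCs switches on at any time. AF067061 read 6.78 before and 9.75 after Dox with forced Nanog, 7.86-fold higher, and Usp17la, a deubiquitinating enzyme, read 5.20 and 7.88. Gm20767 had a log2 ratio of 2.92. Of the 14 list members 4 (28.6%, beside 1.13% of all genes) were over 2-fold higher, the fourth being Arg2, an arginase, with 3.60 and 5.55, and 0 over 2-fold lower. All 4 rose over the pairs, AF067061 by 3.43, Gm20767 by 3.45, Usp17la by 3.49 and Arg2 by 2.89 (standard errors 0.39, 0.42, 0.33 and 0.25, limma adjusted p = 0.0192, 0.0221, 0.0161 and 0.0139). Of the 4 fits with 1 pair left out, these genes passed in 1, 0, 2 and 1. The list median was 0.38 in the Nanog pair and 1.15, 1.56 and 1.26 in the empty vector, 2i and Esrrb pairs, against -0.01 over all genes in the Nanog pair. Members that did not pass the size there included Zfp352, at 0.39 with forced Nanog against 2.999, 1.303 and 2.577, and Tcstv1, at 0.02 against 1.97, 1.56 and 1.64. Their differences between the Nanog pair and the others did not pass (limma adjusted p = 1 for both). Zfp352 and Tcstv1 were named after their values were seen. AF067061 and Gm20767 moved by nearly the same amount in every pair, and whether their probe sets read separate transcripts was not tested.

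The remaining genes of the 15 highest had ratios of 2.003 to 2.65 and were higher in every pair. Neurod1, a transcription factor of neurons and islet cells, read 7.06 before and 9.34 after Dox, and rose by 2.88 over the 4 pairs (standard error 0.32, limma adjusted p = 0.0192). Ptprv read 7.41 and 9.93, and its treated arrays, 9.43 to 10.25, all stood above its untreated ones, 7.26 to 7.41. Mmrn2, a matrix protein of vessels, had a log2 ratio of 2.52, Cox6b2, the testis form of a cytochrome c oxidase subunit, of 2.17, and Htra1, a serine protease, of 2.05. Ms4a10 had 2.65, Mst1 2.24, Gask1b 2.15, Plxdc2 2.13 and Ephx1, the microsomal epoxide hydrolase, 2.003. The small heat shock protein gene Cryab had 2.02 by its brightest probe set and down to -0.27 by another.

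More germline genes were lower than higher with forced Nanog. Of 56 measured genes 9 (16.1%, beside 1.17% of all genes) were over 2-fold lower and 1 (1.79%, beside 1.13%) over 2-fold higher, and 42 were below 0. The list median was -0.35, and -0.26, -0.16 and -0.04 in the empty vector, 2i and Esrrb pairs. In those pairs 7, 8 and 2 members were over 2-fold lower, beside 3.85%, 3.1% and 0.967% of all genes, and 3, 10 and 1 over 2-fold higher, beside 5.36%, 4.81% and 1.06%. In the fit over the 4 pairs, 7 members fell and 2 rose, Rhox5 and Dazl, and 0 were called for a difference between the Nanog pair and the others. Over all genes 3.39% fell and 3.69% rose in the fit over the 4 pairs. Of the 56 genes, 30 had a mean signal below that of the median gene. Among the 26 brighter ones 5 were over 2-fold lower, with a median of -0.43.

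Most of the lower members act in meiosis, but so do many of the 56 listed genes. Whether meiotic genes were more frequent among the lower members than in the list was not tested. Sycp3 and Sycp2 build the axial element of the synaptonemal complex, which pairs chromosomes, and Tex12 its central element. Sycp3 read 11.54 before and 10.06 after Dox with forced Nanog, where the empty vector arrays read 11.36 and 8.47, the 2i arrays 10.37 and 8.24 and the Esrrb arrays 10.89 and 9.74. The treated arrays all lay below the untreated ones, and Sycp3 fell by 1.91 over the pairs (standard error 0.28, limma adjusted p = 0.0265). Sycp2 went from 6.30 to 5.02 with forced Nanog and fell by 0.96 over the pairs (standard error 0.13, limma adjusted p = 0.0254). Tex12 went from 5.82 to 4.73.

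Other meiotic regulators had a lower ratio with forced Nanog than in each other pair, though no such difference passed the test. They are named because that ratio was below -1, and the difference from the other pairs uses the same ratio. Its unadjusted p-values are therefore not independent of the choice of genes. Stra8, which retinoic acid induces at the entry into meiosis, read 7.55 and 5.68 with forced Nanog, 7.61 and 6.71 with the empty vector, 6.99 and 8.35 in 2i and 9.21 and 8.49 with Esrrb. Its ratios thus ran from -1.86 in the Nanog pair to 1.36 in the 2i pair. Meioc, needed to hold germ cells in meiotic prophase, read 8.38 and 6.56 with forced Nanog and had ratios of 0.18, 0.48 and -0.64 in the empty vector, 2i and Esrrb pairs. Tex11, an X-linked gene of meiotic recombination, read 7.10 and 4.78, a ratio of -2.32 against -1.23, -0.45 and -0.48. The Nanog treated array was the lowest of the 8 for each of these 3 genes. The response in the Nanog pair minus the mean of the others was -1.77 for Stra8, -1.83 for Meioc and -1.60 for Tex11 (standard errors 0.94, 0.48 and 0.42, unadjusted p = 0.115, 0.0118 and 0.0114, limma adjusted p = 1 for each).

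Among members with other roles in germ cells, Taf7l was lowest. Taf7l encodes a germ cell form of a TFIID subunit. It read 8.84 before and 6.36 after Dox with forced Nanog, against 8.64 and 8.39 with the empty vector, 8.01 and 7.04 in 2i and 8.83 and 7.29 with Esrrb. Stk31, a kinase gene of the testis, went from 8.10 to 6.93 by this probe set, with ratios of -0.79, -0.50 and 0.07 in the other pairs. Slc25a31, the germ cell ADP/ATP carrier, went from 6.62 to 5.51 and stood at ratios of 0.21, 0.00 and -0.01 in the others (difference -1.19, standard error 0.28, unadjusted p = 0.00787, limma adjusted p = 1). Nxf2, an X-linked RNA export gene named after its values were seen, lay just outside the size, at -0.998. Taf7l, Tex11, Stra8, Meioc and Slc25a31 each have 1 probe set.

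The 1 higher member was Rhox5, an X-linked homeobox gene that ESCs express. It read 11.10 and 12.82 with forced Nanog, 9.93 and 10.87 with the empty vector, 10.71 and 11.22 in 2i and 11.26 and 11.93 with Esrrb. Rhox5 rose by 0.96 over the 4 pairs (standard error 0.20, limma adjusted p = 0.0463). Members that were strongly higher elsewhere stood nearer 0 here. Dazl, an RNA-binding protein of germ cells, had a ratio of 0.34 against 1.53, 2.28 and 1.30, and Rec8, the meiotic cohesin, 0.63 against 1.91, 2.44 and 0.82. Both were named after their values were seen.

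**Figure D3:**
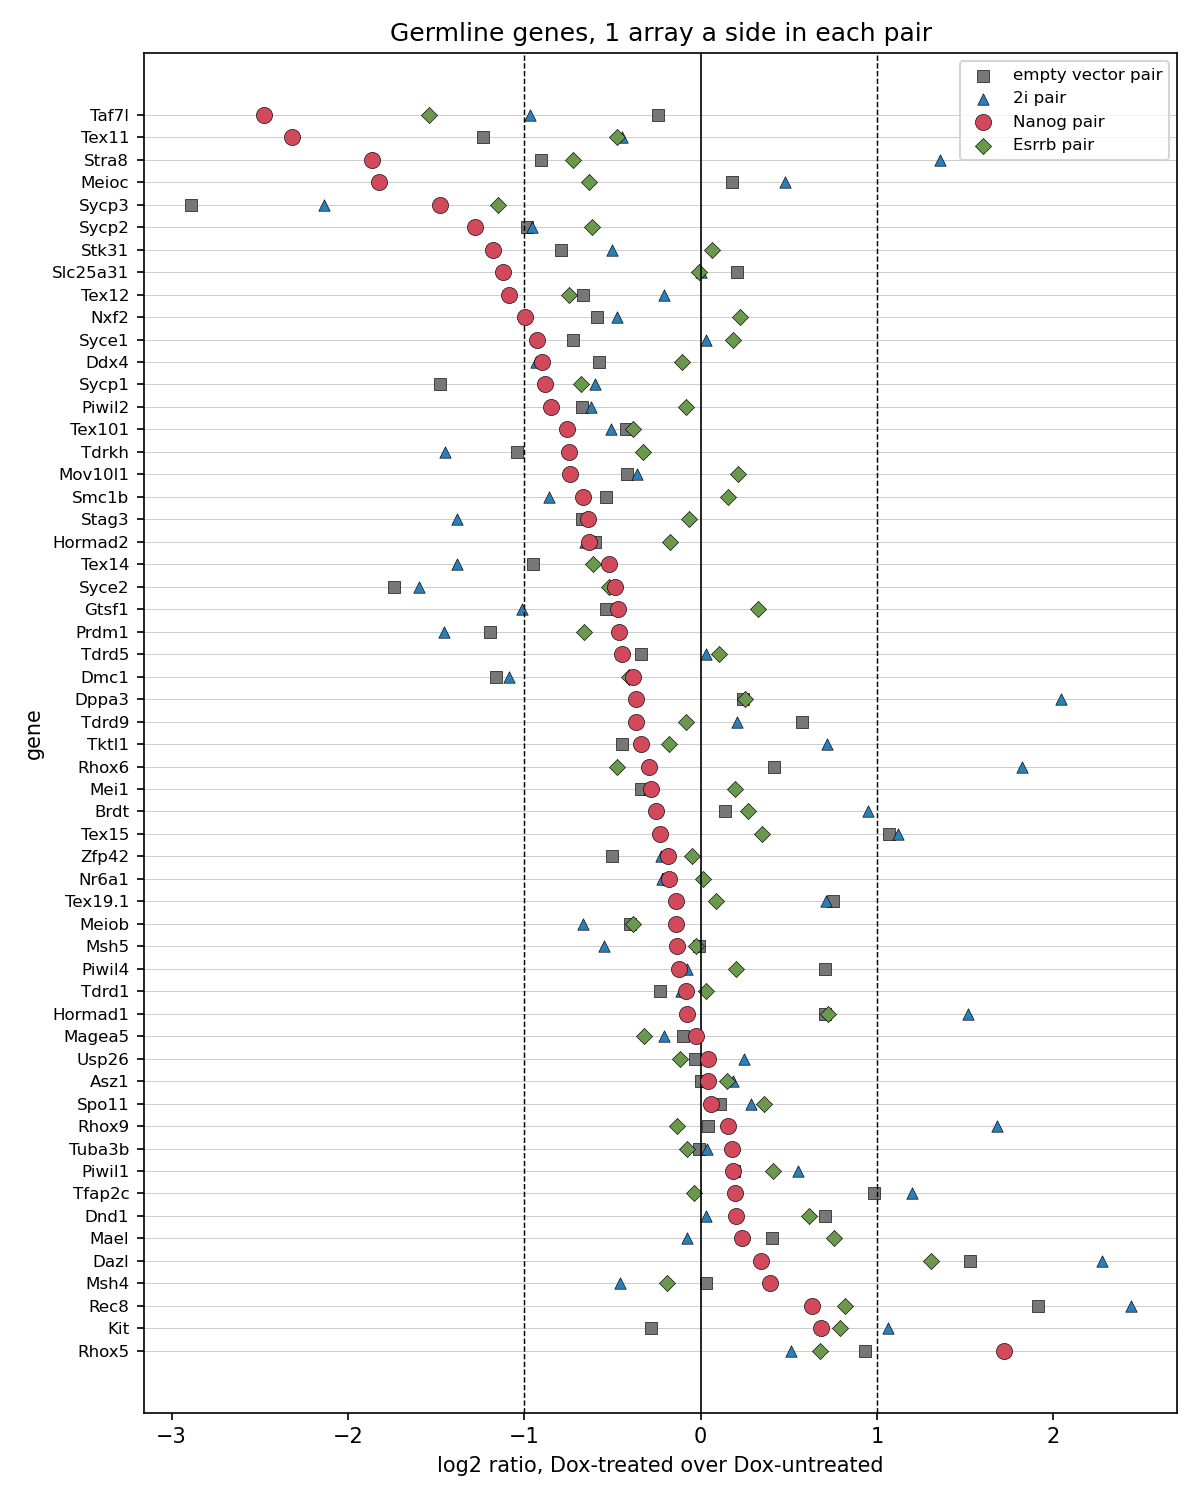
Log2 ratios (Dox-treated over Dox-untreated, 1 array a side) of the 56 germline genes in the 4 pairs, ordered by the Nanog pair, with dashed lines at 2-fold. With forced Nanog (red circles) 9 genes lie left of the line at -1 and Rhox5 right of the line at 1. Right of that line the 2i pair has 10 points, the empty vector pair 3 and the Esrrb pair 1.

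Promoters of germline genes that ESCs silence often hold the E-box CACGTG, bound by Max with Mga, or the sequence TCCCGCC, bound by E2f6. The windows searched on both strands were those of RefSeq on GRCm38.p6, from 250 bases before to 50 after a start site. Such a window was at hand for 14453 of the genes and for 46 of the 56 germline genes, 8 of them over 2-fold lower. CACGTG, a palindrome, occurred in 17 of the 46 (37%) and in 1479 of all (10.2%). It occurred in 5 of the 8 lower genes (62.5%) and in 12 of the other 38 (31.6%). TCCCGCC occurred in 10 of the 46 (21.7%) and in 19.4% of all. The windows of the 5 lower genes with an E-box are shown because each holds it within 100 bases before the start, where 4.86% of all genes, 13 of the 46 germline genes (28.3%) and 8 of the 38 that were not lower by that size (21.1%) do. The 100-base limit was not planned beforehand and encloses a match in each of these 5 genes. The shares at this limit are a description and were not tested. The 150 bases before the start site are printed 5′ to 3′ on the strand of the gene, the E-box in capitals.
Taf7l, chrX:134476491-134476640, minus strand: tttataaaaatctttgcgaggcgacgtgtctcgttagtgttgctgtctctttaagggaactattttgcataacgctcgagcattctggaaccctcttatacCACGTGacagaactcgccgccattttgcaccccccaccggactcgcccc
Sycp3, chr10:88459437-88459586, plus strand: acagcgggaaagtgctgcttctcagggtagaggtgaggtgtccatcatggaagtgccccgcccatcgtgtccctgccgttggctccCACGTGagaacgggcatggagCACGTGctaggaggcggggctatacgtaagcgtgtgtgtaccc
Stk31, chr6:49395389-49395538, plus strand: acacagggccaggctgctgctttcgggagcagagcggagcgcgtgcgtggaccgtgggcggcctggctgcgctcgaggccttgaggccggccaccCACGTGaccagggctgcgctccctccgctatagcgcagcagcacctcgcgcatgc
Slc25a31, chr3:40708721-40708870, plus strand: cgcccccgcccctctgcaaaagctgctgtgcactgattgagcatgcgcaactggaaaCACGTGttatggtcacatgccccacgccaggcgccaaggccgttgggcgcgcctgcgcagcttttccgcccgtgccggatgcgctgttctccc
Tex12, chr9:50561269-50561418, minus strand: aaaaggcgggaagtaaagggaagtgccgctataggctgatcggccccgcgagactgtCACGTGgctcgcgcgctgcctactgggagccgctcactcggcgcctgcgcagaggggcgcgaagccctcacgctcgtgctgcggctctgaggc

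Sycp3 holds the E-box 2 times and the others once in the stretches shown, and Stk31 has a second listed start site downstream whose window holds the same match. In the Nanog pair the 17 germline genes with an E-box anywhere in the window had a median log2 ratio of -0.74, with 15 of 17 below 0, and the 29 without it a median of -0.28, with 21 below 0. This split by E-box was not planned beforehand either, and the difference was not tested. In the empty vector, 2i and Esrrb pairs the medians were -0.42, -0.36 and -0.01 with it and -0.34, -0.21 and -0.05 without. Over all genes of the Nanog pair the medians were -0.02 with and -0.01 without an E-box. Of 18 factors known for silencing germline genes, 0 were over 2-fold changed with forced Nanog. Pcgf6 and Yaf2, of the complex with Mga, stood at -0.43 each, Ehmt2, a histone H3 lysine methyltransferase, at 0.42, and the list median at -0.14. Other probe sets of Pcgf6 ranged from -0.63 to 0.28. Among 9 DNA methylation enzymes 0 passed the size either, with Apobec1 at 0.53, Dnmt3l at 0.51 and Dnmt1 at 0.49.

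Sterol synthesis genes were mostly somewhat higher. Of 18 measured enzymes 16 were above 0 with forced Nanog, 1 (5.56%, beside 1.13% of all genes) was over 2-fold higher and 0 over 2-fold lower. The median log2 ratio was 0.51, against -0.01 over all genes, and -0.01, 0.33 and 0.24 in the empty vector, 2i and Esrrb pairs. Over the 4 pairs 6 members rose, beside 3.69% of all genes, and 0 fell, beside 3.39%. All 18 had a mean signal above that of the median gene. With the mean of all probe sets of a gene the median was 0.33.

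Dhcr7, which makes cholesterol from 7-dehydrocholesterol in the last step, was the highest member. It read 7.55 and 8.87 with forced Nanog, 6.93 and 7.77 with the empty vector, 7.31 and 7.95 in 2i and 7.34 and 7.87 with Esrrb. The treated Nanog array stood above all other arrays, and Dhcr7 rose by 0.83 over the pairs (standard error 0.15, limma adjusted p = 0.0387). At the entry of the pathway, Hmgcs1, the synthase of HMG-CoA, read 10.69 and 11.59 with forced Nanog. Its treated arrays, 11.56 to 11.67, all stood above the untreated ones, 10.46 to 10.99, and it rose by 0.95 (standard error 0.09, limma adjusted p = 0.0172).

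Of the genes of the middle steps some rose as well. Fdft1, the squalene synthase, read 10.04 and 10.84, Mvd, the mevalonate decarboxylase, 7.26 and 8.05, and Idi1, which isomerizes the isoprene unit, 9.343 and 10.004. All 3 rose over the pairs, by 0.66, 0.65 and 0.50 (standard errors 0.08, 0.13 and 0.09, limma adjusted p = 0.0208, 0.0443 and 0.0336). Others stood near 0 in the Nanog pair, Mvk at 0.11, Sqle at 0.21, Lss at 0.10, Ggps1 at -0.09 and Hsd17b7 at -0.02, all named after their values were seen. The rise of Fdft1 holds for its brightest probe set, while another read -0.20 in the Nanog pair. Msmo1, a methyl sterol oxidase, had a log2 ratio of 0.55 with forced Nanog, beside 0.32, 0.37 and 0.14. A pair of late enzymes were higher here and lower with the empty vector. Tm7sf2, a sterol reductase, stood at 0.82 against -0.63, -0.27 and 0.98, and Ebp, a sterol isomerase, at 0.57 against -0.75, -0.07 and -0.32. Ebp read 10.19 and 10.75 with forced Nanog and 10.18 and 9.44 with the empty vector (difference from the other pairs 0.94, standard error 0.32, unadjusted p = 0.0287, limma adjusted p = 1).

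**Figure D4:**
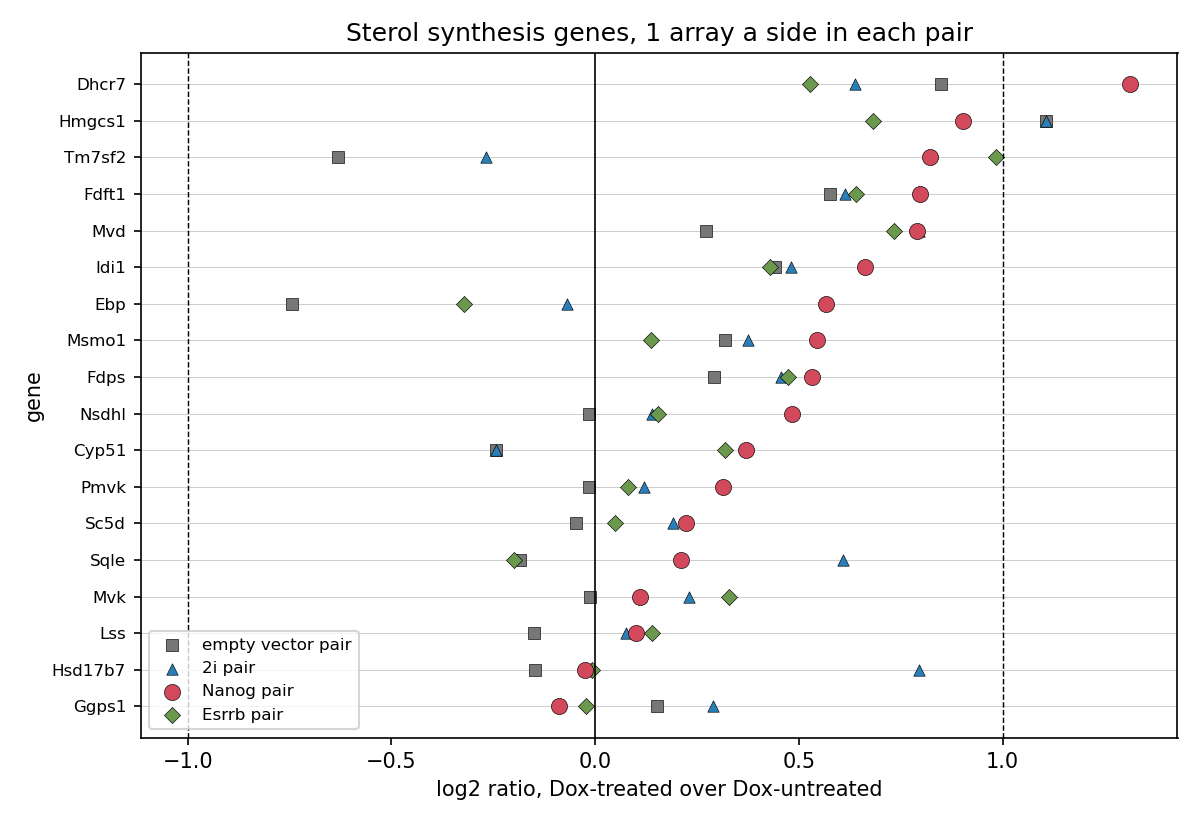
Log2 ratios (Dox-treated over Dox-untreated, 1 array a side) of the 18 sterol synthesis genes in the 4 pairs, ordered by the Nanog pair, with dashed lines at 2-fold. With forced Nanog (red circles) 16 genes lie right of 0 and Dhcr7 past 2-fold, and for Dhcr7, Hmgcs1, Fdft1, Mvd, Idi1, Msmo1 and Fdps all 4 pairs lie right of 0. Fdps was named after its values were seen.

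Of the 17 genes of sterol uptake and SREBP control 0 passed 2-fold with forced Nanog, 10 stood above 0 and 7 below, and the median was 0.10, beside 0.04, 0.22 and 0.21 in the empty vector, 2i and Esrrb pairs. Scap, which escorts SREBP from the endoplasmic reticulum, had a log2 ratio of 0.78, Srebf1 of 0.75 and Srebf2 of 0.72. All 3 rose over the pairs, by 1.15, 0.58 and 0.55 (standard errors 0.16, 0.09 and 0.10, limma adjusted p = 0.0251, 0.0309 and 0.0368). Mylip, a ubiquitin ligase for the LDL receptor named after its values were seen, stood at -0.45. Of 14 fatty acid synthesis genes 0 passed, 11 stood above 0 and the median was 0.30, with Scd2, a desaturase, at 0.78, Fads2, another desaturase, at 0.74 and Fasn, the fatty acid synthase, at 0.63. The median of that list was -0.43, 0.24 and 0.21 in the empty vector, 2i and Esrrb pairs.

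The sterol regulatory element TCACNCCAC was searched in the same windows. It occurred in 1 of 15 sterol synthesis genes with a window (6.67%) and in 211 of all 14453 (1.46%). The member was Hmgcs1, whose stretch is shown with the match in capitals as the 1 case in this list.
Hmgcs1, chr13:119690201-119690350, plus strand: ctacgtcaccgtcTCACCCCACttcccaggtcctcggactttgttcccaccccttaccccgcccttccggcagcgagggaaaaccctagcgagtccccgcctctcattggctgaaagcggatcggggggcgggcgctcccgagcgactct

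The integrated stress response, in which phosphorylated eIF2 raises Atf4 and with it genes of amino acid supply, was lower as a list. Of 31 measured genes 29 stood below 0 with forced Nanog, 7 (22.6%, beside 1.17% of all genes) were over 2-fold lower and 0 over 2-fold higher, with a median of -0.55. In the empty vector, 2i and Esrrb pairs 5, 3 and 16 were over 2-fold lower, beside 3.85%, 3.1% and 0.967% of all genes. The medians were -0.26, -0.48 and -1.02. In the Esrrb pair all 31 stood below 0. Over the 4 pairs 13 members fell, beside 3.39% of all genes, and 0 rose, beside 3.69%. Of the 31, 2 had a mean signal below that of the median gene.

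Atf5, a transcription factor, was the lowest member. It read 10.05 and 7.78 with forced Nanog and 10.42 and 8.40 with Esrrb, but 9.62 and 9.43 with the empty vector and 9.37 and 9.46 in 2i, and did not pass in the common response (limma adjusted p = 0.175). Cebpb, likewise, had ratios of -1.40 and -1.49 in the Nanog and Esrrb pairs and 0.21 and -0.04 in the others. Cebpg, its partner in dimers, was lower in all pairs, reading 10.04 and 8.55 with forced Nanog, and fell by 1.27 over the pairs (standard error 0.11, limma adjusted p = 0.0139). Nupr1, a small chromatin protein induced by stress, read 11.54 and 9.79 and fell by 2.04 (standard error 0.20, limma adjusted p = 0.0172). Aldh1l2, a mitochondrial folate enzyme, read 9.14 and 7.52 and fell by 1.502 (standard error 0.25, limma adjusted p = 0.0313). Stc2 had a log2 ratio of -1.45 and Vldlr of -1.11. Atf4 itself stood nearer 0, at -0.35, as did Asns, the asparagine synthetase, at -0.05. Stc2, Vldlr, Cebpb, Cebpg, Atf4 and Asns were named after their values were seen.

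The amino acid response element TGATGNAAT, to which Atf4 binds with C/EBP partners, occurred in 2 of 26 stress response genes with a window (7.69%), Nupr1 and Fgf21, and in 105 of all 14453 (0.726%). Nupr1 is the 1 lower member that holds it, on the opposite strand, and its stretch is shown with the match in capitals.
Nupr1, chr7:126625471-126625620, minus strand: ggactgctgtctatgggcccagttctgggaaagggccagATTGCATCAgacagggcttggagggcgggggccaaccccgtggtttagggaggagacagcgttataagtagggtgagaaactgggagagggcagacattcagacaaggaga

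**Figure D5:**
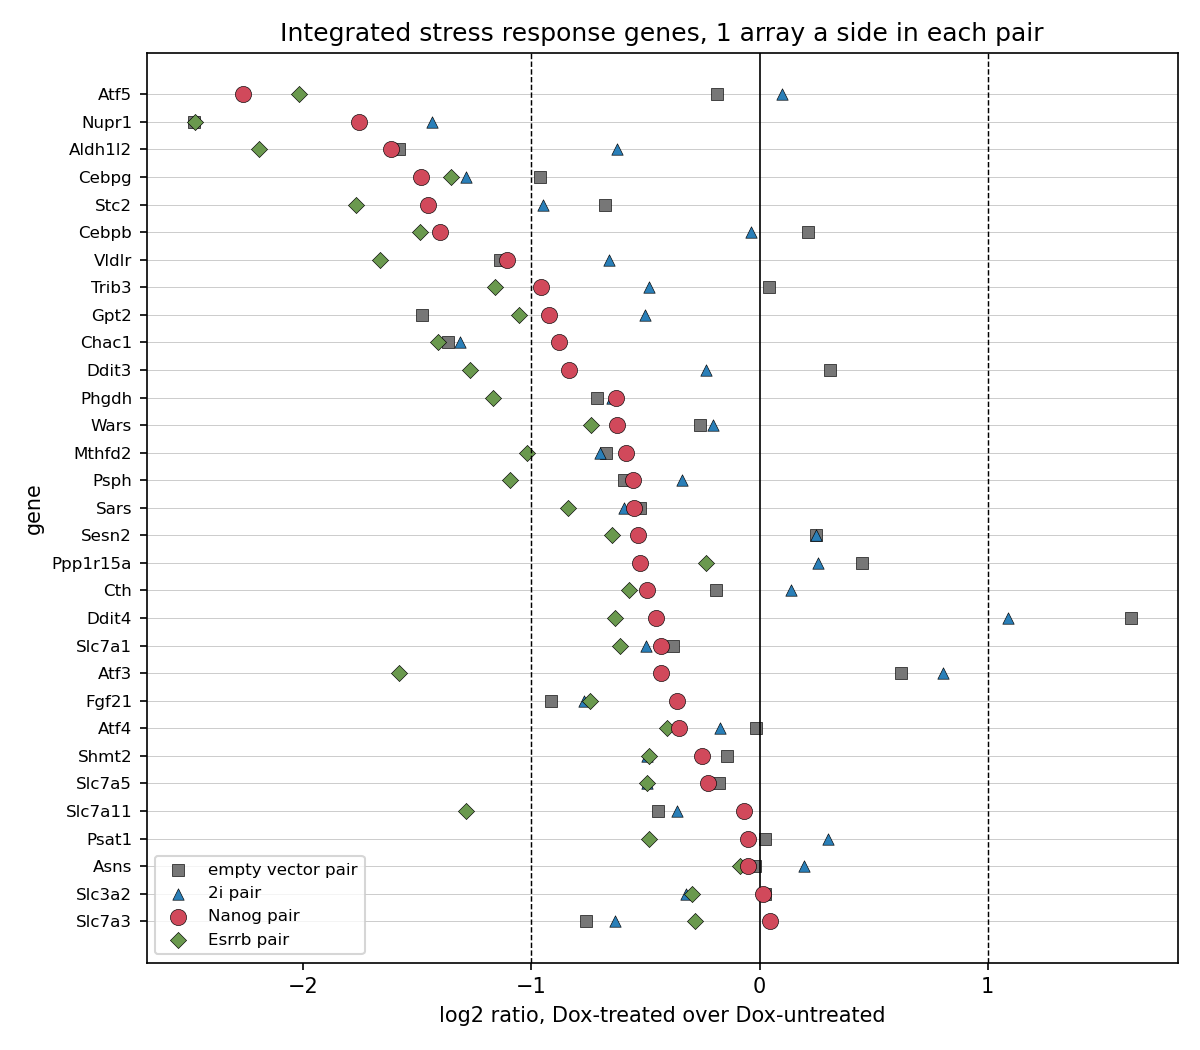
Log2 ratios (Dox-treated over Dox-untreated, 1 array a side) of the 31 integrated stress response genes in the 4 pairs, ordered by the Nanog pair, with dashed lines at 2-fold. With forced Nanog (red circles) 29 genes lie left of 0 and 7 past 2-fold, and Atf5 and Cebpb show the Nanog and Esrrb pairs together, apart from the other two.

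Genes of MHC class I antigen presentation went both ways. Of 19 measured genes 5 (26.3%, beside 1.17% of all genes) were over 2-fold lower and 1 (5.26%, beside 1.13%) over 2-fold higher with forced Nanog, and the median was -0.02. In the empty vector, 2i and Esrrb pairs 5, 2 and 4 were over 2-fold lower, beside 3.85%, 3.1% and 0.967% of all genes. In those pairs 2, 5 and 0 were over 2-fold higher, beside 5.36%, 4.81% and 1.06%. The lower ones were all heavy chains. H2-K1 read 9.85 and 8.46 with forced Nanog, and its treated arrays, 8.46 to 8.52, all stood below the untreated ones, 9.29 to 9.85. H2-K1 fell by 1.09 over the pairs (standard error 0.12, limma adjusted p = 0.0189), and H2-Bl and H2-Q2 by 1.48 and 1.66 (standard errors 0.32 and 0.25, limma adjusted p = 0.0495 and 0.0274). H2-Q2 had a low signal, at 5.30 and 3.03 with forced Nanog. H2-D1 and H2-Q10 had ratios of -1.38 and -1.32. Probe sets of these genes can read more than 1 member of the family, and other probe sets of H2-K1 ranged from -1.66 to -0.18. Tap1, the peptide transporter, read 6.05 and 7.20, a log2 ratio of 1.16 beside 3.54, 3.48 and 0.88. B2m, the light chain, stood at -0.47 with forced Nanog and at 0.03, 1.24 and -0.55 in the empty vector, 2i and Esrrb pairs. Tap1, H2-D1 and H2-Q10 were named after their values were seen.

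Pluripotency genes stood near 0 as a list. Of 30 measured genes 2 (6.67%, beside 1.17% of all genes) were over 2-fold lower and 0 higher, the median was 0.02, and -0.38, -0.17 and 0.10 in the empty vector, 2i and Esrrb pairs. The 2 were Nr0b1, a nuclear receptor that read 12.15 and 11.07, and Lin28a, an RNA-binding protein that read 9.89 and 8.79. Both were lower in all pairs and fell in the common response, by 1.56 and 1.13 (standard errors 0.32 and 0.23, limma adjusted p = 0.0455 and 0.0437). Gbx2, a target of LIF signalling, stood at 0.80. Of 15 partners of Nanog and LIF signalling 1, Otx2, passed the size, and Mycn stood at 0.68. In the primed epiblast list 1 of 14 passed, again Otx2, with Lef1 at -0.84 and Fgf5 at -0.70. The other probe set of Lef1 read -0.05 and that of Fgf5 -0.13.

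With forced Nanog, as with Esrrb, the trophoblast and epithelial lists had medians nearer 0 than with the empty vector or in 2i. The trophoblast list had 1 of 25 members (4%, beside 1.13% of all genes) over 2-fold higher, Id2, from 8.50 to 9.66. In the empty vector, 2i and Esrrb pairs 14, 10 and 0 passed, beside 5.36%, 4.81% and 1.06% of all genes. The trophoblast median was 0.19 with forced Nanog against 1.10, 0.72 and -0.01 in those pairs. Krt19, a keratin, read 7.083 and 8.004 with forced Nanog, 6.43 and 11.39 with the empty vector, 6.77 and 9.975 in 2i and 6.75 and 7.05 with Esrrb. Of 20 keratinocyte and epithelial genes 2 (10%) were over 2-fold higher, Fgfbp1, from 7.46 to 9.33, and Perp, a p53 target of desmosomes, from 10.13 to 11.20, and 1 lower, Cldn7. The list median was 0.17, and 2.29, 1.21 and 0.28 in the empty vector, 2i and Esrrb pairs. Endoderm markers had 1 of 21 higher (4.76%), Sparc at 1.02, and 2 lower (9.52%, beside 1.17% of all genes), Lrp2 at -2.14 and Amn at -1.11. Other probe sets of Lrp2 read up to 0.04, and those of Sparc down to -0.11. Of 49 Polycomb target regulators 1 (2.04%), Tbx4, passed at 1.12 beside 3.734, 4.004 and 0.58 in the empty vector, 2i and Esrrb pairs. The other probe set of Tbx4 read 0.28 in the Nanog pair. Of 17 mesoderm markers 0 passed, and of 17 neurectoderm markers 1 (5.88%), Otx2, which was lower. Fibroblast markers had 1 of 13 higher (7.69%), Vim, at 1.03.

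Of 28 p53 target genes 3 (10.7%, beside 1.13% of all genes) were over 2-fold higher with forced Nanog and 0 lower, with a median of 0.29. In the empty vector, 2i and Esrrb pairs 14, 14 and 2 were over 2-fold higher, beside 5.36%, 4.81% and 1.06% of all genes. The medians were 1.03, 0.98 and 0.41. Over the 4 pairs 9 rose, beside 3.69% of all genes. Btg2, an antiproliferative gene, read 9.60 and 10.62, Fas, a death receptor, 3.81 and 4.91, a low signal, and Perp is given above. Cdkn2b, an inhibitor of Cdk4 and Cdk6, was the 1 of 41 cell cycle genes past the size (2.44%), at 1.46, and rose over the pairs by 2.52 (standard error 0.40, limma adjusted p = 0.0298). Of 25 apoptosis genes 1 was lower (4%, beside 1.17% of all genes), Hrk, at -1.51, and Apaf1 stood at 0.80. Of 39 ribosome biogenesis genes 0 passed in either direction, with a median of 0.06, Nop14 at -0.54 and Nolc1 at 0.53. Another probe set of Nolc1 read -0.16. Gnl3l, the closest relative of Gnl3, stood at -0.65 by its brightest probe set and at 0.16 by the other.

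Of 18 AP-1 and immediate early genes 4 (22.2%, beside 1.13% of all genes) were over 2-fold higher with forced Nanog and 0 lower, with a median of 0.21. In the empty vector, 2i and Esrrb pairs 7, 5 and 0 were over 2-fold higher, beside 5.36%, 4.81% and 1.06% of all genes. The medians were 0.60, 0.56 and 0.09. Of 18 MEK and Erk feedback genes 3 (16.7%) were over 2-fold higher with forced Nanog and 4, 2 and 0 in those pairs. Over 2-fold lower were 0 with forced Nanog and 1, 7 and 1 in those pairs, beside 3.85%, 3.1% and 0.967% of all genes. The median of this list was 0.10 with forced Nanog and 0.29, -0.62 and 0.15 in those pairs. Egr1 read 11.20 and 12.74 with forced Nanog, against 9.51 and 9.41 with the empty vector and 11.55 and 12.55 with Esrrb, and had a log2 ratio of -0.93 in 2i. Egr2 read 4.42 and 6.53, a low signal, and its ratios were -0.18, -0.08 and 0.38 in the empty vector, 2i and Esrrb pairs (difference 2.06, standard error 0.31, unadjusted p = 0.00099, limma adjusted p = 1). Fos had a log2 ratio of 1.19 and rose over the pairs by 1.04 (standard error 0.08, limma adjusted p = 0.0139), Phlda1 stood at 1.29 beside 3.673, 1.802 and 0.288 in the empty vector, 2i and Esrrb pairs, and Ccn1 at 1.45 beside 4.53, 2.975 and 0.96.

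The lists left showed few members past the size, beside 1.13% of all genes over 2-fold higher and 1.17% over 2-fold lower with forced Nanog. Of 23 interferon-stimulated genes 1 was higher, Ifitm3, from 8.46 to 9.93, and it rose by 2.25 over the pairs (standard error 0.29, limma adjusted p = 0.0221). Grb10, an imprinted adaptor, went from 12.20 to 11.05 and was the 1 of 26 imprinted genes past it, and Hexa, a lysosomal hexosaminidase, at -1.03, the 1 of 20 lipid catabolism genes. Of 28 glycolysis and hypoxia genes 0 passed and 21 stood above 0, with a median of 0.25, Pfkp at 0.82 and Pfkl at 0.69. Of 24 adhesion and matrix genes Sparc alone passed, by its brightest probe set. Of 16 Wnt target genes 0 passed, with Ccnd1 at 0.81, and of 16 housekeeping genes 0, with a median of -0.04.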

How the data were processed

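Gene expression in NS tet-off ESCs was measured on Affymetrix GeneChip mouse genome arrays, with 1 array for each of 8 conditions. Background subtraction and normalization were done by the authors with the RMA method (affy, R), whose versions the sources used here do not give. The deposited values are log2 signals. No source names the base of the log, and a range of 1.82 to 14.6 led to its being taken as 2. They were used as they stand. RMA gives all arrays nearly the same distribution, which hides any change shared by most genes, and compresses the ratios of genes near background. The number of arrays sets the precision.

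Of 45101 probe sets, 34958 carry 1 gene symbol in the platform annotation, 932 several and 9211 are unnamed here. RefSeq held 34754 of the first kind by Entrez ID. The brightest probe set on average stood for each of 18194 genes, and 0 value columns belonged to other samples. Values of a gene's other probe sets are given for some genes only.

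Within the Nanog pair genes were compared by size alone, at 2-fold. Tests were made with limma 3.58.1 in R 4.3.3 (lmFit and eBayes with a trend, the background as a block) for the response common to the 4 pairs, with 3 residual degrees of freedom, and for the Nanog pair minus the mean of the other 3, with 2. Pairs, which are different cell populations, stand in for replicates, so that p-values measure the spread between pairs. In the fit of the Nanog pair minus the others, that spread comes from the other 3 pairs. The lone Nanog pair is assumed to vary as they do. Benjamini-Hochberg adjustment covered all 18194 genes, with a threshold of 0.05. The code was tested on simulated data.

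General knowledge was the source of the 33 gene lists, which overlap, and 749 of their 839 symbols were measured. The comparison, its members and the lists were chosen with earlier results of these data known. Genes named were Gnl3 and Nanog, the 15 highest and 15 lowest above the median signal, germline and sterol genes past 2-fold or with the 8 largest ratios of their list, up to 3 of every other list, the 10 largest coefficients per direction and test, cell type markers, and genes whose promoter is printed. Of the 15 highest, 1 gene is not reported here. Any other gene is marked in the text as chosen with its values in view. Promoter sequences are RefSeq's on GRCm38.p6.

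Alternatives were averaging a gene's probe sets, omitting probe sets with the suffix _x_at, removing dim ones, a second quantile normalization, centred arrays, 1.5-fold and 3-fold thresholds, limma with no trend, and omitting 1 pair at a time. Chosen after seeing the data were a count of genes with any probe set past 2-fold and the alternatives for list counts and for the remaining list medians. Other steps used Python 3.11.15, pandas 2.3.3, numpy 2.4.6 and, for figures, matplotlib 3.10.9.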

Additional observations from a re-analysis of the deposited data

Results flagged for a closer look

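Probe sets that are unnamed here take no part in the comparison of genes. Of these 9211 probe sets, 187 were over 2-fold higher on the Dox-treated than on the Dox-untreated Nanog array (2.03%) and 32 over 2-fold lower (0.347%), so that this unreported signal stood above the level of the control array mostly in 1 direction, while genes were split 206 to 213. Of the 219 past the size, 133 had a mean signal above the median of all values. No test was possible and the difference in balance was not tested.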

How the results depend on the processing

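Both limma fits pair the treated and untreated arrays of each background as a block. By replicate number, no paired analysis was possible because the labels give none. The counts of genes over 2-fold higher and lower were 206 and 213, and moved to 789 and 780 at 1.5-fold and to 44 and 52 at 3-fold. With a count chosen after seeing the data, that of genes with any probe set past 2-fold, they were 322 and 290. The 5 other alternatives gave 142 to 211 higher and 149 to 234 lower genes. The germline median of -0.35 became -0.47 with the filter on dim probe sets and -0.40 with centred arrays, which left fewer dim genes in the one and shifted the arrays in the other, and lay at -0.35 to -0.32 otherwise. The sterol synthesis median of 0.51 became 0.33 with the mean of probe sets and lay at 0.46 to 0.52 otherwise. Germline genes over 2-fold lower numbered 9 or 10 and stress response genes 7 or 8 under those 5 alternatives. The common response of 1287 genes shrank to between 3 and 35 with 1 pair left out: 29 without the empty vector, 18 without the 2i, 35 without the Nanog and 3 without the Esrrb pair, with 6 arrays in place of 8. The other alternatives gave 871 to 1688. The difference between the Nanog pair and the others stayed at 0 genes in limma under every alternative run, with 1363 genes at an unadjusted p under 0.05 without the Esrrb pair. Of the 71 named genes past 2-fold, 65 stayed past it with the mean of probe sets and 68 with centred arrays, and 0 changed sign. The number of arrays limits every value given here.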

Other observations

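Host genes of small nucleolar RNAs, whose spliced transcripts are known to be degraded once translated, were looked at after their values were seen. Of 15 genes, Gas5 and all those whose symbol starts with Snhg, 3 (20%, beside 1.17% of all genes) were over 2-fold lower with forced Nanog. None was over 2-fold higher, beside 1.13% of all genes. The median log2 ratio was -0.15 beside -0.97, -0.27 and -0.23 in the empty vector, 2i and Esrrb pairs. Gas5 read 13.26 before and 12.05 after Dox in the Nanog pair, Snhg1 13.14 and 12.03, and Snhg12 11.29 and 9.94. Their log2 ratios of -1.21, -1.12 and -1.35 stood beside -2.07, -1.996 and -2.30 in the empty vector pair, and in every pair the treated array lay below the untreated one. Over the 4 pairs 4 of the 15 fell (limma adjusted p under 0.05), beside 3.39% of all genes, and 0 rose, beside 3.69%. Another probe set of Gas5 read 0.11 in the Nanog pair.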
